A study of Mus musculus with 50 samples.

Results

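The digits described here are the mouse distal terminal phalanges (P3) of the third hindlimb digit collected 14 days after amputation, 3 after an intermediate amputation and 3 after a non-regenerative one. They are 6 of the 41 digits and 50 samples of the series, and they were chosen by their labels alone. The study removed different shares of P3 from hindlimb digits of male C57Bl/6 mice, young adults without a transgene or drug treatment, and sequenced polyadenylated RNA of the mixed cells around the wound bed. The intermediate digits are labelled with 42%, 52% and 54% of P3 removed, and the non-regenerative digits with 63%, 77% and 80%. By the study's own limits, the 63% digit lies among the intermediate levels, but it was kept as labelled. The 52%, 54% and 63% digits carry a label date in July and the 42%, 77% and 80% digits one in December. The labels do not say what the date marks, and the 42% and 80% digits share their mark (L1), date and side (left). All 6 are labelled as left digits, and the study amputated 1 digit per hindlimb, so they were taken to come from separate mice. On that assumption, which the shared label of the 42% and 80% digits leaves unchecked, p-values measure the spread between mice.

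The comparison asks how the wound bed of a digit that can still regrow part of its bone differs from that of a digit that heals without it, at a time when bone is being rebuilt. Background for reading the lists is as follows. The regrowing P3 forms bone directly, without a cartilage model, when osteoblasts, the cells that lay down bone matrix, are drawn to the wound and mineralize it. Osteoclasts, which dissolve bone, clear the stump first. In a scar, fibroblasts and contractile myofibroblasts deposit and cross-link fibrillar collagen under signals such as TGF-beta. Neutrophils arrive early after a wound and normally leave, while macrophages stay and take part in both clearance and repair. Lists of 72 bone genes, 84 scar genes and 138 immune genes were followed, and in bulk tissue fewer cells of a type cannot be told apart from less RNA per cell.

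The libraries held 3408916 to 11121106 expected counts, and 1 of them stood apart. Spearman's rho between the 77% digit and the others ran from 0.624 to 0.676, against 0.91 to 0.95 among the other 5. Of 6157 genes with at least 100 counts in each of the other digits, 37 were at 0 and 156 under 10 counts in the 77% digit. The same count in turn for each other library gave at most 2 genes under 10. The transcripts of the 156 genes had a median length of 2517 bases and a GC content of 45.3%, against 1916 bases and 49.8% for all 6157. The tenth of these genes that was highest in the 77% digit against the others had 1146 bases and 56.5%. High values in this digit thus come from a library skewed to short, GC-rich transcripts, and no fit below corrected for GC content. The biological coefficient of variation was 65.4% with this library and 35.8% without it. The comparisons below are therefore given with and without the 77% digit, in that order where 2 values follow each other. Any 2 libraries differed by more than counting error, with a chi-square per degree of freedom of at least 10.1, so none was counted as a repeat of another.

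**Figure D1:**
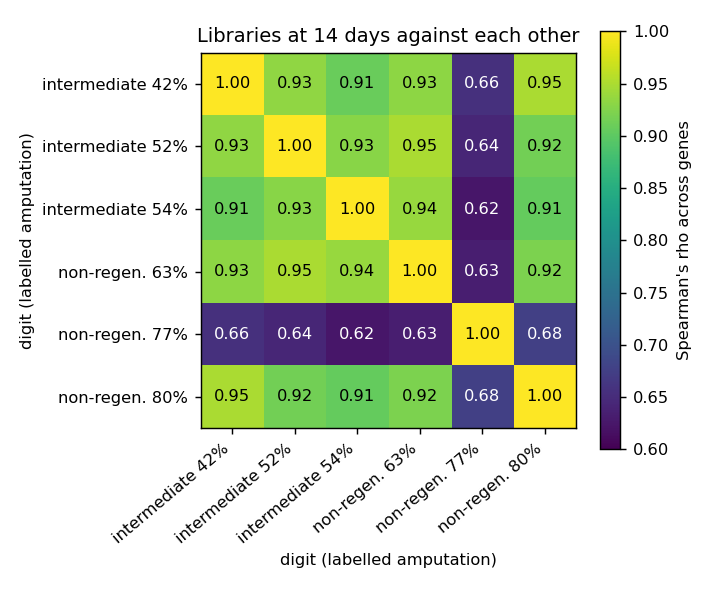
Spearman's rho across genes between each 2 of the 6 libraries at 14 days, as a description over genes whose mean TPM reached 1. The row and column of the 77% digit lie between 0.62 and 0.68. Among the others, the 42% digit is nearest to the 80% digit (0.95) and the 52% digit to the 63% digit (0.95).

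No gene passed the test between the groups. A gene was called when edgeR's quasi-likelihood test gave a Benjamini-Hochberg adjusted p under 0.05 and the group means of normalized counts, each plus 1, were over 2-fold apart. With all 6 digits, 0 of 13421 genes were called (0.0%), and the smallest adjusted p in edgeR was 0.862. At an unadjusted p under 0.05, 19 genes were higher (0.142% of the genes tested) and 251 lower (1.87%) in intermediate digits. When the 77% digit was left out, 0 of 13803 genes were called (0.0%), with 106 genes at an unadjusted p under 0.05 higher (0.768%) and 114 lower (0.826%). DESeq2 called 0 genes as well, with 855 at an unadjusted p under 0.05 in the 6 digits and 294 without the 77% digit. What follows describes the digits and gives the tests as measured, and no difference between the groups below is a call.

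Groups that do not overlap are counted beside the same count over all genes. With all 6 digits, 565 genes (4.21%) lay higher in each intermediate digit than in any non-regenerative digit, and 519 genes (3.87%) lay lower. Without the 77% digit these were 975 (7.06%) and 1043 (7.56%). Of the bone genes, 63 were tested in the 6 digits, of which 7 lay higher and 3 lower without overlap. Of 83 scar genes tested, 1 lay higher and 8 lower, and of 79 immune genes 1 lay higher and 4 lower. Leaving out the 77% digit gave 8 higher and 5 lower of 64 bone genes, 1 and 13 of 83 scar genes, and 1 and 10 of 85 immune genes. The median log2 difference of intermediate minus non-regenerative digits was 0.16 for bone, -0.29 for scar and -0.51 for immune genes, against 0.03 for all genes. After leaving out the 77% digit, the medians were 0.03, -0.23 and -0.45, against 0.00 for all genes. At an unadjusted p under 0.05, all 12 members in the fit of 6 digits (3 bone, 3 scar and 6 immune genes) were lower in intermediate digits, as were 251 of the 270 such genes over the whole table. Leaving out the 77% digit gave 1 higher and 0 lower bone genes, 1 higher and 3 lower scar genes, and 0 higher and 6 lower immune genes.

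**Figure D2:**
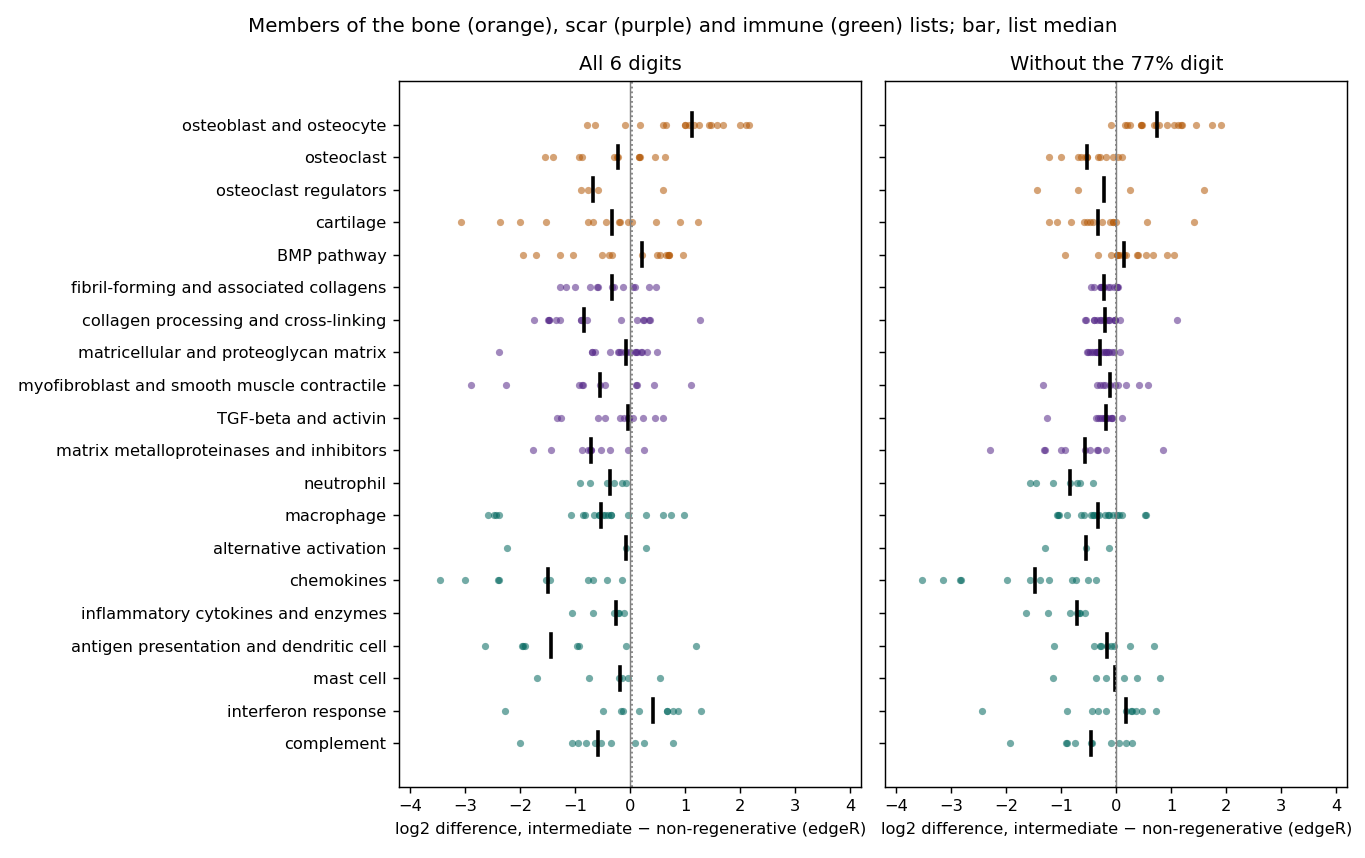
Log2 difference between intermediate and non-regenerative digits at 14 days for each tested member of the bone, scar and immune lists with at least 3 members tested, with all 6 digits (left) and without the 77% digit (right). Each point is 1 gene, the black bar is the list's median and the dotted line the median of all genes. The osteoblast and osteocyte list lies to the right in both panels and the chemokine list to the left.

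Among the bone lists, genes of osteoblasts and osteocytes had the most positive differences. Of 18 tested members, 15 had a higher fitted level in intermediate digits, and 17 did without the 77% digit. The median log2 difference was 1.1 and 0.75, respectively, with 0 members called. The summed level of the list, in TPM (a level per transcript length and depth) rescaled to an equal total per library, was 2097, 1512 and 1438 in the 42%, 52% and 54% digits. It was 1316 in the 63% digit, 179.1 in the 77% digit and 611 in the 80% digit. The intermediate digits thus lay above all 3 non-regenerative ones, but the 63% digit was close to them. The rescaling was needed because the deposited values of the 77% digit sum to 3362791, against 835765 to 1040874 in the other 5. On the deposited scale the list summed to 602.3 in the 77% digit, and the groups still did not overlap, with 1202 as the lowest intermediate and 1101 as the highest non-regenerative sum. Every sum of the 77% digit is higher on that scale, and it is given below where its place among the digits moves. Leaving out the 63% digit as well as the 77% digit gave a median of 2.36, and leaving out the 80% digit in its place gave 0.22. The size of the difference thus rested on the 80% digit once the 77% digit was left out.

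Runx2, the transcription factor that starts the osteoblast lineage, whose gene overlaps others on the opposite strand, had normalized counts of 253.5, 242 and 296.2 in the 42%, 52% and 54% digits, and 239.5, 16.91 and 142 in the 63%, 77% and 80% digits. The groups did not overlap, yet the 63% digit was within 3 counts of the 52% digit. Its log2 difference was 0.99 ± 0.81 (SE, n = 3 and 3, edgeR adjusted p = 0.889) and 0.47 ± 0.28 without the 77% digit. Sp7 (osterix), the factor that acts after it, measured 281.7, 82.99 and 132.1 in intermediate digits and 152.2, 6.149 and 25.28 in non-regenerative digits, with the 63% digit inside the intermediate range. Phex, a membrane protease of osteoblasts and osteocytes needed for mineralization, had the smallest p of the list. It measured 371.8, 430 and 204.1 in intermediate digits and 189.7, 27.67 and 15.56 in non-regenerative digits. The difference was 2.108 ± 0.94 (95% interval -0.06 to 4.28, edgeR adjusted p = 0.862) and 1.74 ± 0.89 without the 77% digit (interval -0.36 to 3.83).

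Products of mature osteoblasts showed the same 2 low digits. Ibsp, bone sialoprotein, measured 12560, 3362 and 3466 in intermediate digits and 3860, 301.3 and 1877 in non-regenerative digits, so the groups overlapped at the 63% digit. Its difference was 1.68 ± 0.96 (adjusted p = 0.862, edgeR) and 1.18 ± 0.66 without the 77% digit. Within the July labels, the difference of the 52% and 54% digits from the 63% digit was -0.18 on the log2 scale, and within December the 42% digit lay 2.74 above the 80% digit. Dmp1, Spp1 and Bglap2 are also given, and were named after their values were seen. Dmp1, a matrix protein of osteocytes, measured 449.1, 265 and 182.1 against 253.6, 23.06 and 24.64, with the 63% digit again among the intermediate ones. Spp1, osteopontin, which macrophages and osteoclasts also make, did not follow them, at 1490, 1339 and 1675 against 1290, 270.6 and 1418.

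Bglap, osteocalcin, the most specific product of mature osteoblasts, measured 222.1, 563 and 276.2 in intermediate digits and 188.8, 44.58 and 3.242 in non-regenerative digits. The groups did not overlap, and the 80% digit was lowest. The difference was 2.16 ± 1.14 (adjusted p = 0.862, edgeR) and 1.91 ± 1.19 without the 77% digit. The neighbouring copy Bglap2 measured 119.1, 89.99 and 186.1 against 93.92, 0 and 3.89. The 2 genes lie next to each other on the minus strand of chromosome 3, with their coding exons at chr3:88383638-88384415 (Bglap) and chr3:88377873-88378650 (Bglap2) in GRCm38. Their coding sequences, from the GENCODE vM21 transcripts, are shown because they say how far the 2 values can be told apart. Both have 288 bases and code for 95 residues, and the 4 bases that differ are in capitals.
Bglap: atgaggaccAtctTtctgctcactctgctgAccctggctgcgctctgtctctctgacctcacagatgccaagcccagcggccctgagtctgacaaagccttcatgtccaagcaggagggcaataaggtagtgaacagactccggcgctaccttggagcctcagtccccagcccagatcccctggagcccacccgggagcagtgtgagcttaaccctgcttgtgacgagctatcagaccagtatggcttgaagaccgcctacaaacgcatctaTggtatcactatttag
Bglap2: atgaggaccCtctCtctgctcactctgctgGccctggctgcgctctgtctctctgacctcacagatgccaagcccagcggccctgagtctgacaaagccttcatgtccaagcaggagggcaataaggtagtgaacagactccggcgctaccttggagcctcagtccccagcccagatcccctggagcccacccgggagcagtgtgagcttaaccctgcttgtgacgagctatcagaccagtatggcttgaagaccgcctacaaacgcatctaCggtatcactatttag
Of the 376 windows of 65 bases, the read length, in the Bglap transcript, 262 are also in that of Bglap2, and 348 are within 2 mismatches of it. The counting program divides such reads between the copies by estimation, so the sum of the 2 is firmer than either value. No other gene was compared with these 2, so reads shared with a further copy would not have been seen.

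**Figure D3:**
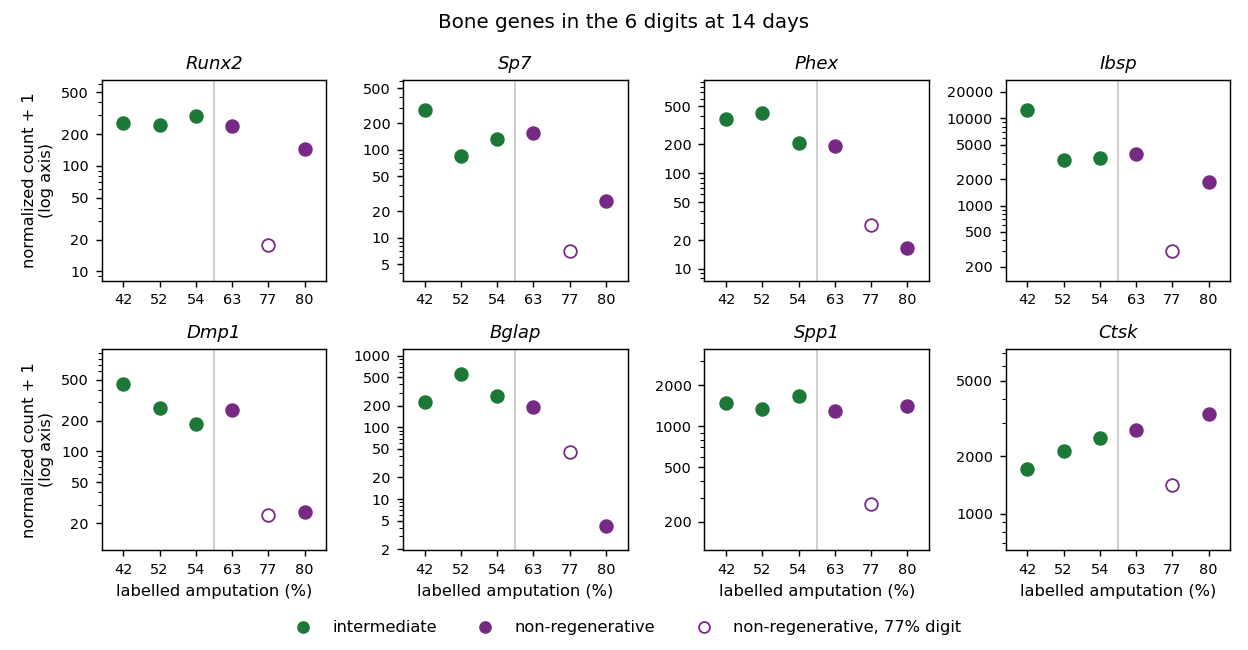
Normalized count plus 1 (log axis) of 8 bone genes in each digit at 14 days, by labelled amputation percentage; the open circle is the 77% digit. For Sp7, Phex, Dmp1 and Bglap the 77% and 80% digits lie below the other 4, while for Spp1 and Ctsk the 80% digit lies with or above them.

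Osteoclast genes did not share this direction. Of 12 tested members 7 had a lower fitted level in intermediate digits, and of 13 tested without the 77% digit 11 did, with medians of -0.23 and -0.53. This direction rested on the 80% digit, without which the medians were 0.24 and 0.01. Ctsk, cathepsin K, the protease that digests bone collagen, measured 1715, 2123 and 2500 in intermediate digits and 2760, 1410 and 3339 in non-regenerative digits. The difference was -0.25 ± 0.52 with all 6 digits. Without the 77% digit the groups did not overlap and it was -0.53 ± 0.23 (edgeR, unadjusted p = 0.0543). The proton pump and chloride channel that acidify the resorption pit also had lower means in intermediate digits. Tcirg1, a pump subunit, measured 208.4, 181 and 134.1 against 194.4, 980.8 and 355.3, a difference of -1.54 ± 0.66 (adjusted p = 0.862, edgeR) and -0.65 ± 0.33 without the 77% digit. Clcn7, the channel, measured 274.4, 198 and 224.1 against 376.6, 661 and 295, a difference of -0.93 ± 0.49 and -0.53 ± 0.24, and its groups did not overlap. Among the regulators, the osteoclast inducer Tnfsf11 (RANKL) measured 90.13, 44 and 14.01 against 31.93, 0 and 245.1, so its highest value was in the 80% digit. Tnfrsf11b (osteoprotegerin), its decoy receptor, measured 38.63, 93.99 and 18.01 against 50.72, 13.84 and 35.66, and the groups overlapped.

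Cartilage and BMP genes were mixed. Of 14 cartilage genes tested, 10 had a lower fitted level in intermediate digits, with a median of -0.33 (-0.34 without the 77% digit). Comp, a matrix protein of cartilage and tendon, measured 563.3, 1466 and 1345 against 2419, 13480 and 1583, a difference of -2.37 ± 0.91 (adjusted p = 0.862, edgeR) that was -0.83 ± 0.41 without the 77% digit. Col11a2, a minor fibrillar collagen of cartilage, ran the other way, at 1204, 1142 and 938.6 against 693.1, 578 and 134.2, without overlap. Its difference was 1.23 ± 0.64 and 1.41 ± 0.61 (edgeR, unadjusted p = 0.0902 and 0.0528). Of the 15 BMP genes, 8 had a higher fitted level in intermediate digits and 12 without the 77% digit, with medians of 0.21 and 0.15 that turned to -0.40 and -0.02 without the 42% digit. Bmp2, a bone-inducing ligand, measured 111.9, 162 and 184.1 against 140.9, 58.42 and 93.36. Bmp4, a related ligand, was the only BMP gene whose groups did not overlap, at 95.77, 77.99 and 80.05 against 51.66, 38.43 and 65.48, a difference of 0.70 ± 0.52 and 0.53 ± 0.33.

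The scar collagens did not separate the groups. Col1a1, the main chain of type I collagen, measured 79530, 143800 and 103100 in intermediate digits and 140700, 187900 and 84390 in non-regenerative digits. Its difference was -0.34 ± 0.58 (adjusted p = 0.889, edgeR) and -0.05 ± 0.33 without the 77% digit, and leaving out more libraries turned its sign. The 42% and 80% digits were the 2 lowest. Summed over the 13 collagens, the TPM was 10800, 31880 and 28950 in intermediate digits and 34230, 12390 and 18910 in non-regenerative digits, with 0 members called and none whose groups were apart. The 77% digit had the highest sum on the deposited scale (41660).

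Among enzymes that process and cross-link collagen, 2 lysyl oxidase relatives differed in opposite directions. Loxl4 measured 44.26, 51 and 50.03 in intermediate digits and 25.36, 15.37 and 19.45 in non-regenerative digits, a difference of 1.26 ± 0.62 and 1.111 ± 0.46 (edgeR, unadjusted p = 0.0768 and 0.0449). Loxl3 measured 142.4, 130 and 164.1 against 230.1, 385.9 and 195.1, a difference of -0.89 ± 0.48 and -0.55 ± 0.23. Neither gene's groups overlapped with or without the 77% digit. Of the 18 matricellular and proteoglycan genes, 11 had a lower fitted level in intermediate digits, and 17 did without the 77% digit, with medians of -0.08 and -0.30. With all 6 digits that median turned to 0.17 without the 42% digit and to 0.18 without the 63% digit. Fn1, fibronectin, measured 3915, 8869 and 8996 against 10960, 4289 and 9832, a difference of -0.20 ± 0.60 and -0.52 ± 0.37. Thbs1, thrombospondin 1, an activator of TGF-beta, measured 3236, 3630 and 3732 against 4492, 802.5 and 4485, a difference of 0.12 ± 0.68 that turned to -0.35 ± 0.19 without the 77% digit. Acta2, the actin of myofibroblasts and smooth muscle, measured 1045, 994.9 and 1053 against 664, 3611 and 1429, with the intermediate digits inside the range of the others.

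The protease inhibitors Timp1 and Timp2 had higher values in every non-regenerative digit than in any intermediate one. Timp1, which blocks matrix metalloproteinases (chrX:20870166-20874735, plus strand, GRCm38, within Syn1 on the other strand), measured 156.9, 122 and 108.1 in intermediate digits and 262, 408.9 and 381.9 in non-regenerative digits. The groups did not overlap. The difference was -1.44 ± 0.46 with all digits (interval -2.51 to -0.37, edgeR unadjusted p = 0.0145, adjusted p = 0.862). Without the 77% digit it was -1.31 ± 0.27 (interval -1.96 to -0.66), the smallest p among the lower genes that the naming rule gave (edgeR, unadjusted p = 0.00203, adjusted p = 1). Within July the difference was -1.18 and within December, without the 77% digit, -1.28. Timp2 measured 3886, 7056 and 6448 against 7878, 12620 and 9214, a difference of -0.77 ± 0.52 and -0.56 ± 0.29. Of the proteases, Mmp3 (stromelysin 1) was high in 1 digit, at 506.2, 273 and 252.2 against 373.8, 93.77 and 3031. Its difference of -1.76 ± 1.10 (-2.30 ± 0.76 without the 77% digit) turned to 0.56 when the 80% digit was left out of the 6.

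**Figure D4:**
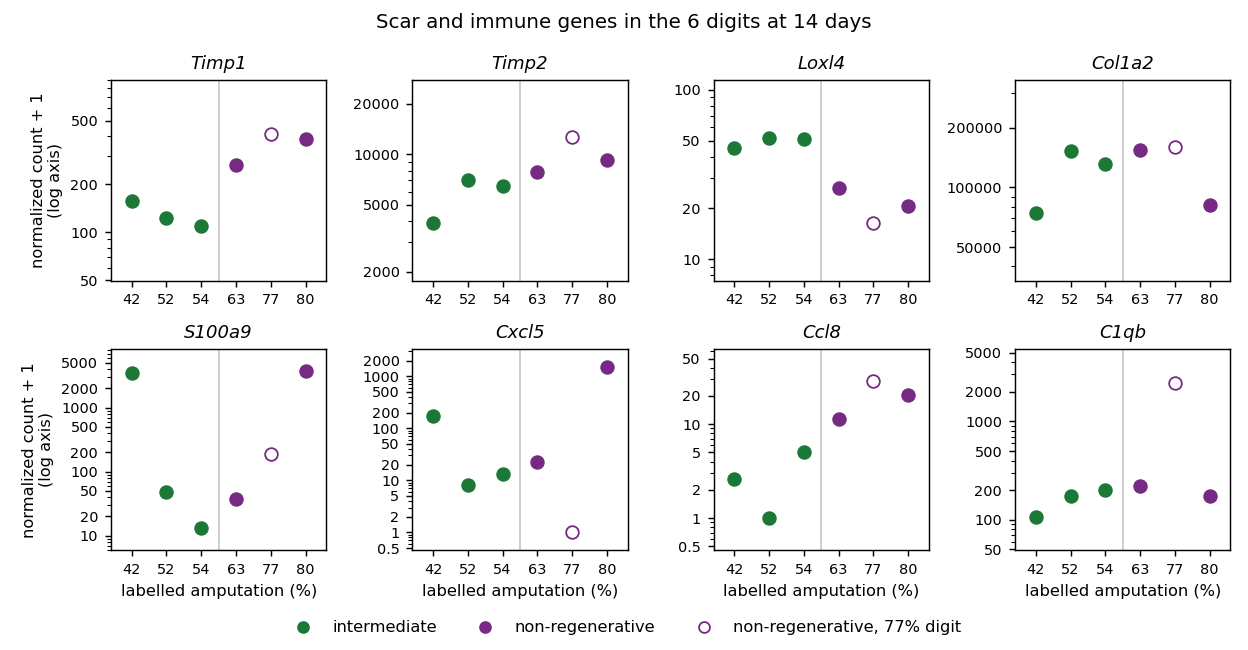
Normalized count plus 1 (log axis) of 4 scar and 4 immune genes in each digit at 14 days, by labelled amputation percentage; the open circle is the 77% digit. Timp1 and Timp2 lie higher and Loxl4 lower in every non-regenerative digit, S100a9 and Cxcl5 are highest in the 42% and 80% digits, and C1qb is highest in the 77% digit.

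The summed neutrophil list followed 2 digits, 1 of each group. The summed TPM of the neutrophil list was 2151 in the 42% digit and 2730 in the 80% digit, and 52.13 to 106.4 in the other 4. S100a8, a subunit of calprotectin, which fills neutrophils, measured 1019, 33 and 30.02 against 29.12, 255.2 and 1173. S100a9, the other subunit, measured 3473, 47 and 12.01 against 36.63, 187.5 and 3725. The group difference of S100a8 was -0.43 ± 1.53 (adjusted p = 0.931, edgeR) and -0.72 ± 1.67, and it was 3.65 without both the 77% and the 80% digit. Of the 17 listed members, 6 passed the filter on low counts, and 7 did without the 77% digit. The defining marker Ly6g and the granule genes Mpo, Elane, Camp, Ltf and Ngp were not among them. Keratinocytes of wounded skin also make S100a8 and S100a9, and the summed TPM of the wound-induced keratins was 8801 in the 42% digit and 13580 in the 80% digit, against 2443 to 5653 in the others (16310 in the 77% digit on the deposited scale). The part of these cells in the result was not tested.

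Chemokines were the immune list with the most negative median. All 10 tested members had a lower fitted level in intermediate digits, and so did all 12 without the 77% digit, with medians of -1.50 and -1.48. Cxcl5, which draws neutrophils, measured 168.2, 7 and 12.01 in intermediate digits and 21.6, 0 and 1503 in non-regenerative digits, a difference of -3.01 ± 2.106 and -3.53 ± 1.62. Ccl2 and Ccl7, which draw monocytes, were also highest in the 80% digit. Ccl2 measured 12.88, 12 and 2.001 against 9.392, 9.224 and 127.1, a difference of -2.38 ± 1.24 and -2.83 ± 1.1 (edgeR, unadjusted p = 0.0915 and 0.0337). Ccl7 measured 77.26, 22 and 16.01 against 19.72, 41.51 and 553.7, a difference of -2.40 ± 1.26 and -2.84 ± 1.18. The list's direction rested on that library: without it the median was 0.18 with the 77% digit kept and 0.44 with both left out, and Cxcl5 and Ccl7 turned positive. Ccl8, named after its values were seen, was the only chemokine whose groups did not overlap, at 1.61, 0 and 4.003 against 10.33, 27.67 and 19.45. Its difference was -3.45 ± 1.25 and -3.14 ± 1.25 (edgeR, unadjusted p = 0.0246 and 0.0407), on counts of a few reads in the intermediate digits. Ccl8 passed the filter on low counts through the non-regenerative digits, which favours such a separation. Its lack of overlap and its p-values are therefore no sign of a group difference by themselves.

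Macrophage genes had a smaller median difference once the 77% digit was left out, but single genes moved both ways. Of 20 tested, 16 had a lower fitted level in intermediate digits and 15 without the 77% digit, with medians of -0.53 and -0.33. Csf1r, the receptor that macrophages need to survive, measured 200.4, 418 and 262.2 against 423.6, 830.1 and 352. Ccr2, the receptor for Ccl2 on incoming monocytes, measured 77.26, 86.99 and 56.04 against 127.7, 3.075 and 148.5, a difference of -0.35 ± 1.012 and -0.90 ± 0.30 (edgeR, unadjusted p = 0.741 and 0.0203). Msr1, a scavenger receptor, measured 76.45, 40 and 30.02 against 107.1, 7.686 and 101.8, a difference of -0.56 ± 0.91 and -1.068 ± 0.45. In both genes the 77% digit lay below every other digit. The complement gene C1qb, a macrophage product, measured 107, 174 and 198.1 against 219.8, 2467 and 175, and its difference of -2.58 ± 1.04 was -0.31 ± 0.31 without the 77% digit. Arg1, an enzyme of alternatively activated macrophages, measured 3299, 1145 and 542.4 against 742, 375.1 and 4151, so the 42% and 80% digits were again highest.

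Antigen presentation genes stood out in the 77% digit. H2-Ab1, a chain of MHC class II, measured 246.3, 371 and 320.2 against 247, 2984 and 396.8, and its difference of -1.95 ± 0.93 was -0.05 ± 0.29 without that digit. H2-DMb1, which helps to load peptides, measured 20.12, 4 and 16.01 against 20.66, 193.7 and 37.6, a difference of -2.63 ± 1.05 and -1.13 ± 0.81. Mgl2, a lectin of dermal dendritic cells and macrophages, measured 13.68, 7.999 and 6.004 against 22.54, 89.16 and 24.64, a difference of -2.25 ± 0.87 and -1.31 ± 0.72. Cfb, complement factor B, measured 90.13, 45 and 96.06 against 92.04, 345.9 and 489.5, with the 63% digit inside the intermediate range. Its difference was -2.01 ± 0.70 and -1.93 ± 0.66 (edgeR, unadjusted p = 0.0214 and 0.0229). Lymphocytes were hardly seen: 1 of 15 T and NK cell genes and 0 of 7 B and plasma cell genes passed the filter in the 6 digits. The summed TPM of these lists was 6.66 to 21.03 and 0 to 3.44. For B and plasma cell genes the 77% digit moved from 0.52 to 1.749 on the deposited scale, below the 52% digit alone.

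Outside the lists, genes were named by the smallest p over all genes tested, and their patterns over the digits differed. Smoc1, a secreted antagonist of BMP signals, measured 13.68, 13 and 18.01 in intermediate digits and 42.27, 159.9 and 124.5 in non-regenerative digits. Its difference was -2.87 ± 0.70 (interval -4.47 to -1.27) and -2.50 ± 0.57 (edgeR, unadjusted p = 0.00328 and 0.00329, adjusted p = 0.862 and 1). Bcl3, a partner of NF-kappa B, measured 68.41, 42 and 46.03 against 62.93, 307.5 and 392.9, a difference of -2.28 ± 0.73 and -2.12 ± 0.69. Lrrc25, a membrane protein of myeloid cells, measured 3.219, 3 and 8.005 against 30.06, 90.7 and 23.34, a difference of -3.38 ± 0.94 and -2.56 ± 0.82. Awat2, a wax synthase of sebaceous glands, measured 3.219, 2 and 8.005 against 16.91, 175.3 and 56.4, a difference of -4.29 ± 1.10 and -3.16 ± 0.92. Lrrc25 and Awat2 were at a few counts in every intermediate digit and passed the filter on low counts through the non-regenerative digits. The size of their differences is therefore limited by depth. Adam19, a membrane protease, measured 144.1, 174 and 204.1 against 319.3, 72.25 and 307.9, a difference of -0.43 ± 0.63 and -0.86 ± 0.23, and its groups were apart once the 77% digit was left out. Fgf10, a growth factor of limb mesenchyme, had higher values in intermediate digits, at 86.92, 62 and 50.03 against 27.24, 0 and 17.5, with a difference of 2.116 ± 1.09 and 1.58 ± 0.47 (edgeR, unadjusted p = 0.0874 and 0.0125). Enpp6, a choline phosphodiesterase, had the same order, at 34.61, 63 and 74.05 against 15.03, 0 and 15.56, with a difference of 2.42 ± 1.079 and 1.88 ± 0.54.

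Some keratin genes had higher values in intermediate digits, though 1 of 10 hard keratins of nail and hair tested was at an unadjusted p under 0.05 and 0 were called. Krt90, a keratin gene, measured 5050, 2570 and 754.5 in intermediate digits and 548.5, 476.6 and 548.5 in non-regenerative digits, a difference of 2.41 ± 0.71 and 2.35 ± 0.72 (edgeR, unadjusted p = 0.00953 and 0.0138). Krt33a, a hard keratin, measured 1134, 77.99 and 20.01 against 15.03, 4.612 and 26.58, a difference of 4.69 ± 1.49 and 4.29 ± 1.65 that rested on 1 high digit. The summed TPM of the hard keratins was 11390, 8272 and 2958 in intermediate digits and 8990, 4608 and 163.1 in non-regenerative digits, and on the deposited scale the 77% digit had the highest sum (15500). The 80% digit was far lowest, and the part of nail tissue in these differences was not tested.

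More genes passed the test for the label date than for the group. In a fit of the 5 digits other than the 77% digit, with the group kept in and chosen after the data were seen, 189 genes (1.37%) were higher and 43 genes (0.312%) lower in December than in July (edgeR, adjusted p under 0.05, no fold threshold). December then stands for the 42% and 80% digits and July for the 52%, 54% and 63% digits. Of 85 immune genes tested, 10 were higher and 2 lower. S100a8 was higher by 5.14 ± 0.18 (adjusted p = 0.000342, edgeR), Il1b, an inflammatory cytokine, by 4.52 ± 0.22 (adjusted p = 0.00121, edgeR) and Cxcl5 by 5.33 ± 0.43 (adjusted p = 0.00452, edgeR), all log2. The macrophage genes Lyz2 and Gpnmb were the 2 that were lower. Of 83 scar genes, 5 were higher, Mmp13 (collagenase 3) among them, and 8 lower. The lower ones were the collagens Col1a2, Col5a2, Col6a3 and Col16a1 and the matrix genes Lum, Fmod, Cthrc1 and Aspn. Of 64 bone genes 4 were higher (Mmp9, Car2, Col2a1 and Id1), with none of the 18 osteoblast and osteocyte genes among them. With the 77% digit in the fit, no gene differed by date (0 of 13421 by edgeR, 223 at an unadjusted p under 0.05). The date cannot be told apart from whatever else the 42% and 80% digits share.

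Set beside the other times, the osteoblast and osteocyte list and the collagen list at 14 days overlapped in range with 21 days. The osteoblast and osteocyte list summed to 255 to 449 TPM in the 3 intermediate digits at 0 hours and 179 to 361.3 in the 3 non-regenerative ones. At 21 days it was 891.8 to 1809 and 190.5 to 869, so the groups lay apart at 14 and, narrowly, at 21 days and overlapped at 0 hours. All intermediate digits at 21 days carry a label date in August, and the non-regenerative ones a date in December or January. Group and label date thus cannot be told apart at 21 days. The fibril-forming collagens summed to 1493 to 4686 TPM over the 6 digits at 0 hours and to 10800 to 34230 at 14 days, without overlap of the times. The neutrophil list in the 42% and 80% digits (2151 and 2730) lay above all 6 digits at 24 hours (209.2 to 1780), while the other 4 digits lay near those at 0 hours (44.63 to 88.68). These sums include S100a8 and S100a9, which keratinocytes of wounded skin also make.

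**Figure D5:**
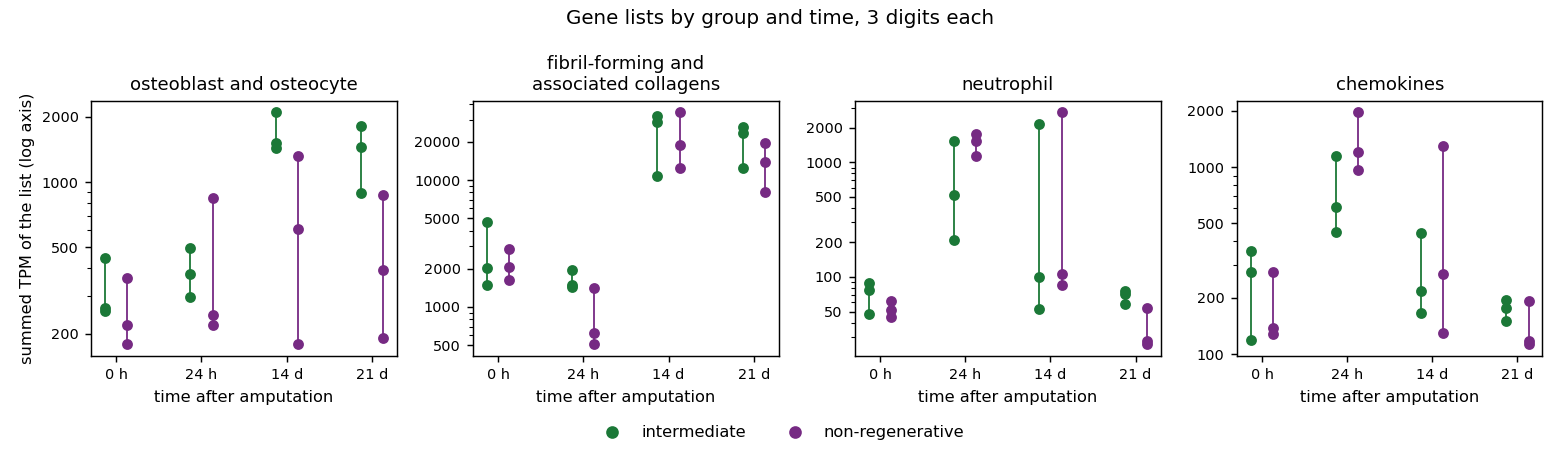
Summed TPM, rescaled to an equal total per library (log axis), of 4 gene lists at 0 hours, 24 hours, 14 days and 21 days after amputation. Each point is 1 digit, 3 per group and time, joined by a line, with intermediate digits in green and non-regenerative digits in purple. The osteoblast list is apart between the groups at 14 and 21 days, and at 14 days 1 digit of each group has a neutrophil level of 2151 or more. At 21 days the groups also share no label date.

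Whether the group difference at 14 days was another one than at 0 hours or at 21 days was tested as an interaction in 24 digits. No gene was called for either (0.0% of 14768 genes each, edgeR). The groups share no label date at 21 days, so the interaction against 21 days cannot be told apart from the date. At an unadjusted p under 0.05 there were 1581 genes (10.7%) against 0 hours and 1318 genes (8.92%) against 21 days, with smallest adjusted p-values of 0.234 and 0.468 in edgeR. Leaving out the 77% digit gave 357 and 895 of 15259 genes. Of 65 bone genes, 6 and 13 were at an unadjusted p under 0.05, of 84 scar genes 9 and 10, and of 108 immune genes 14 and 10. Leaving out the 77% digit gave 6 and 11 of 66 bone genes, 3 and 7 of 84 scar genes, and 5 and 4 of 115 immune genes. Against 21 days, 0 of these bone genes had a higher and 13 a lower group difference at 14 days. Without the 77% digit these were 1 and 10. The scar genes had 2 higher and 8 lower (1 and 6 without the 77% digit), and the immune genes 0 and 10 (0 and 4). The median was -0.59 and -0.67 over the bone genes, -0.49 and -0.33 over the scar genes, and -0.67 and -0.71 over the immune genes. Over all genes the median was -0.015 and -0.022. The shift was thus not particular to the bone genes. Over all genes, 300 were higher and 1018 lower, and 435 and 460 without the 77% digit. For Timp1 the log2 difference at 14 days minus that at 0 hours was -1.88 ± 1.123, and minus that at 21 days it was -1.995 ± 1.03 (edgeR, unadjusted p = 0.108 and 0.0663), and -1.82 ± 1.19 and -1.935 ± 1.04 without the 77% digit.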

How the data were processed

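The members and gene lists were chosen with earlier results of these data known. RNA of each digit was poly(A)-selected and sequenced as single 65-base reads. Per the study's methods, the authors aligned reads with Bowtie to an Ensembl annotation of GRCm38 and estimated with RSEM 1.2.3 the deposited expected counts per gene. The authors also deposited TPM values scaled by a median of ratios, a normalized signal that was rescaled here to an equal total per library and summed over lists. Whether counting used strand is not given in the sources used here. Expected counts were rounded, filtered (filterByExpr), TMM-normalized and tested with edgeR 4.0.16 in R 4.3.3. The study's own tool, EBSeq, was not used here. Calls needed a Benjamini-Hochberg adjusted p under 0.05 and over 2-fold of the mean normalized count plus 1. Log2 differences are intermediate minus non-regenerative digits, ± SE. DESeq2 1.42.0 and limma 3.58.1 were alternatives, and the edgeR script was tested on simulated data. Named genes were the first 3 members of each list, those with the smallest p per list, and those with the smallest p over all genes, in both fits. The total expected count per library was 3408916 to 11121106, which limits genes of a few counts. Lists of other cell types were followed for context. Gene positions are from GENCODE vM21. Some genes are not reported here.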

Additional observations from a re-analysis of the deposited data

How the results depend on the processing

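All 84 alternatives tried for the counts of calls gave 0 calls, so the groups were not told apart under any of them. This number counts the higher and lower calls of a fit apart, enters some fits more than once and includes the interactions. The number of separate fits is therefore smaller. For the comparison of all 6 digits, the number of genes at an unadjusted p under 0.05 ran from 37 (label month as a term) to 2209 (all digits of the series in 1 fit, smallest adjusted p 0.0545 in edgeR), with 1563 without the 63% digit and 1088 without the 80% digit. For the interactions it ran from 357 to 3285 (against 0 hours) and from 895 to 2918 (against 21 days), lowest without the 77% digit and highest without the 63% digit. Of 760 alternatives for the 80 gene differences given, 21 turned the sign, and 18 of these left out 1 library. With all 6 digits, leaving out a library gave -3.94 to 1.37 for S100a8, -2.30 to 0.56 for Mmp3, -5.76 to 2.48 for Cxcl5, -3.42 to 0.36 for Ccl7, -0.53 to 0.025 for Ctsk, -0.35 to 0.42 for Thbs1, -0.52 to 0.10 for Fn1 and -0.90 to 0.16 for Ccr2. The label month as a term gave 0.32 for S100a8, and limma on normalized TPM gave 0.074 for Ccr2 (0.36 with the smaller pseudocount). Among its leave-outs, S100a8 was 0.12 without the 52% digit and 0.12 without the 54% digit. Without the 77% digit, the ranges were -0.37 to 0.36 for Col1a1, -4.25 to 3.65 for S100a8, -6.42 to 1.57 for Cxcl5, -3.89 to 0.99 for Ccl7 and -0.35 to 0.34 for H2-Ab1. The causes were not tested. The fit of all other digits without the 77% digit, the test of the label month, the sums on the deposited TPM scale and the list medians with libraries left out were chosen after seeing the data. No paired analysis was possible because the labels of the digits carry no replicate number and do not tie 2 of these libraries to 1 animal. Genes of a few counts, such as Ccl8, are limited by depth, and the smallest library held 3408916 expected counts.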

Other observations

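Some lists outside bone, scar and immune cells also differed between single digits. Rescaled to an equal total per library, the erythroid list summed to 190.7 TPM in the 77% digit and 14.11 to 38.23 TPM in the other 5. Basal keratinocyte genes summed to 26720 TPM in the 77% digit and 7622 to 11570 TPM elsewhere. The housekeeping list was also highest in the 77% digit, at 28180 TPM against 19010 to 22120 TPM. Skeletal muscle genes stayed low in all 6 digits, at 9.91 to 34.27 TPM, and endothelial genes were at 174.9 to 319.9 TPM. On the deposited scale the 77% digit had the highest sum of both lists (39.82 and 870.6). Of the 12 cell cycle genes, 7 had a higher fitted level in intermediate digits, with a median log2 difference of 0.24, and 2 had groups that did not overlap. The 12 digit mesenchyme and patterning genes had a median of 0.43, and 0.13 without the 77% digit, with none whose groups were apart.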
